A study of Mus musculus with 24 samples.

Results

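The proteasome subunit genes of mouse thymocytes were followed here across 8 groups of arrays. Members were the genes whose symbol began with Psm, then a letter from a to g and a number, and each was represented by its brightest probe set with a single symbol over the 24 arrays. The rule found 49 members among the 18193 genes measured, on 103 probe sets. All but Psmc3ip encode a proteasome subunit or a protein that binds or assembles the proteasome. Psmc3ip, a protein of meiotic recombination, was taken by its symbol alone.

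The arrays were Affymetrix Mouse430_2, and their values are log2 signals of probe sets. The cells were double-positive (DP) T cells, immature thymocytes that carry both CD4 and CD8, sorted from the thymus of male Black 6J mice aged 8 weeks. The mice were wild type (WT), SapKO, ElkKO or the combined knockout ElkSapKO, with 3 mice of each genotype, and Sap and Elk were read as Elk4 (SAP-1) and Elk1. Both belong to the ternary complex factors, which carry an ETS DNA-binding domain, act with serum response factor at promoters and are switched on by ERK kinases, and the series asks what they do in positive selection of T cells. After a 2 h rest, cells of each mouse were held for 30 min on plain plates (untreated) or on plates bearing anti-CD3, an antibody that triggers the T cell receptor, which gave 8 groups of 3 arrays. Precision is limited by this small number of arrays. The labels do not say how the alleles were made or in which cells they were deleted.

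The proteasome is the large protease that destroys proteins marked with ubiquitin. Its 20S core is a barrel of stacked rings, with alpha subunits that gate the entrance and beta subunits of which some cut protein. The 19S cap binds ubiquitin, removes it and unfolds the protein with a ring of ATPases. Interferon exchanges the cutting subunits for Psmb8, Psmb9 and Psmb10 (the immunoproteasome), which is abundant in lymphoid cells. In the thymus, cortical epithelial cells carry a further form with Psmb11, the thymoproteasome, whose peptides serve positive selection.

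Promoters were examined because Elk and Sap bind ETS motifs. RefSeq promoters (build GRCm38.p6, 250 bases before to 50 bases after the start) were listed for 41 of the 49 members, 44 promoters in all. The ETS motif CCGGAAG, searched on both strands, was present in 17 of the 44, or 38.64%. It was present in 8.858% of all 32851 promoters and in 21.98% of the 4869 promoters of genes with a mean signal of at least 8 log2. The antioxidant response motif TGACNNNGC is bound by the Nrf factors that control proteasome genes. It was in 13.64% of the member promoters, 12.39% of all promoters and 14.54% of the promoters of genes this bright. In the same order, CCAAT was in 36.36%, 37.41% and 37.48%, and the serum response element (CArG box) in 2.273%, 1.629% and 1.068%. All were searched on both strands, and a CArG box can hold a CCAAT. A match is a description of the letters and was not a measure of binding. The promoters below were chosen because they hold the ETS motif and belong to called members. Psme3, Psma6 and Psmd11 were called in the Elk comparison and Psmg3 in the response to anti-CD3. Each is printed in the direction of its gene, with the ETS motif or its reverse complement in capitals.

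Psme3 (chr11:101315963-101316262, plus strand): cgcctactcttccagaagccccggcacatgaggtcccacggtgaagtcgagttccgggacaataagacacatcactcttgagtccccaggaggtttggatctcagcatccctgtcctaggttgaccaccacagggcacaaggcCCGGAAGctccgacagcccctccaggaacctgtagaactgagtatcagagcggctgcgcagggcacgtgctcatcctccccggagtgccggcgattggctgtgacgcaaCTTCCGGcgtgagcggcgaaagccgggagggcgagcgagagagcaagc
Psma6 (chr12:55398575-55398874, plus strand): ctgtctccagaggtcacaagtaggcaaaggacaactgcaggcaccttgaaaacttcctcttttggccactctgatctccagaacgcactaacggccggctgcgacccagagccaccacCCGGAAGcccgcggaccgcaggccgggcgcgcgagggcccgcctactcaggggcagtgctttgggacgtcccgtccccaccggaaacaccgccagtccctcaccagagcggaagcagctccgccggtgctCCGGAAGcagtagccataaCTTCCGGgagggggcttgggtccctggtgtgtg
Psmd11 (chr11:80428365-80428664, plus strand): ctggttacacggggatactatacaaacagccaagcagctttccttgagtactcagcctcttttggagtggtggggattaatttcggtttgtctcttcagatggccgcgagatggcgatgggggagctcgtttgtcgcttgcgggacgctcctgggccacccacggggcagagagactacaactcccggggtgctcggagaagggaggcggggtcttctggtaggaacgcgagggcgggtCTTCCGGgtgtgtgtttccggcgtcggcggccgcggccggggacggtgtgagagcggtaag
Psmg3 (chr5:139826845-139827144, minus strand): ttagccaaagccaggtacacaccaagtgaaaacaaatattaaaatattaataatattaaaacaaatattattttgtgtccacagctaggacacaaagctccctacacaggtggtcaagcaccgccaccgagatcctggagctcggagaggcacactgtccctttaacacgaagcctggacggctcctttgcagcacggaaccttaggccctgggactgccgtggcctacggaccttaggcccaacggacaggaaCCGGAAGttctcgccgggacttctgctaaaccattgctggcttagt

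With the first base of the gene as 1 and the base before it as -1, the motif began at -107 and 3 in Psme3, at -132, -2 and 18 in Psma6, at -11 in Psmd11 and at 5 in Psmg3. Psma6 is listed with a second start, whose promoter lacked the ETS motif and held the single CArG box among the member promoters. Of the 8 members called in the Elk comparison 5, Psma2, Psma5, Psmd1, Psmd14 and Psmg4, had listed promoters without the ETS motif. Among all 41 members with a listed promoter, called or not, 16 had the motif.

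The knockouts and the arrays were checked before the members. Elk4 signal lay at 10.25 to 10.99 log2 in the 12 WT and ElkKO arrays and at 6.13 to 7.85 in the 12 SapKO and ElkSapKO arrays. Elk1 signal was dim and overlapped, at 4.69 to 5.23 log2 in the 12 arrays with Elk and 4.03 to 4.74 in those without. No source used here says whether its probe set lies in the deleted part. The labelled cell type was borne out by its markers, with Cd4 at a mean of 11.2 log2, Cd8a at 12.7 and Rag1 at 12.8. The Actb 3′ minus 5′ signal, which grows as RNA degrades, was 0.224 ± 0.0742 log2 in WT (SD, n = 6 arrays), 0.195 ± 0.0252 in SapKO, 0.495 ± 0.110 in ElkKO and, the highest, 0.714 ± 0.188 in ElkSapKO. The dap control RNA, which is spiked in before labelling, was at a high level in all 12 arrays without Elk and in only 4 of the 12 with Elk, those of WT mouse 3 and SapKO mouse 2. In untreated cells of ElkSapKO mouse 2 the relative log expression spread most widely, with an IQR of 0.782 log2 against at most 0.383 on the other arrays.

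Nearly all members were far above background in these cells. The member means ran from 3.56 to 11.6 log2, and 47 of the 49 lay above 5.07, the highest signal of Xist in these male mice, which was taken as background. The exceptions were Psma8, the alpha subunit of the testis proteasome, with a mean of 3.56 log2, and Psmb11 with a mean of 3.67. The immunoproteasome subunits were well above it in every array. In WT untreated cells Psmb8 was at 11.1 ± 0.068 log2 (SD, n = 3), Psmb9 at 9.04 ± 0.049 and Psmb10 at 9.08 ± 0.074. Their constitutive counterparts Psmb5, Psmb6 and Psmb7, the cutting subunits of the standard core, were at 10.2 ± 0.032, 10.5 ± 0.104 and 11.4 ± 0.185. Levels of different probe sets are not compared, since each has its own probe affinity. Markers of other cell types were partly present. Of 14 thymic epithelial markers 6 had means within the Xist range, and the brightest, Ctsl, was at 11.07 log2. Their summed signal was 11.3 to 11.5 log2 in the 6 WT arrays, 11.4 to 11.7 in SapKO, 11.02 to 11.6 in ElkKO and 11.1 to 11.7 in ElkSapKO. Of 13 macrophage and dendritic cell markers 7 lay in that range, and Cd74 and H2-Aa were at 7.15 and 7.01. Their sum was 9.07 to 9.41 log2 in WT, 9.38 to 9.94 in SapKO, 8.70 to 9.34 in ElkKO and 8.79 to 10.4 in ElkSapKO. Of 7 B cell markers 5 lay in it, and Ighm and Cd79b were at 11.86 and 7.62. Their sum was 11.7 to 12.2 log2 in WT, 11.8 to 12.5 in SapKO, 11.5 to 12.4 in ElkKO and 11.4 to 12.5 in ElkSapKO. The sums add unlogged signals, so that the epithelial sum is mostly Ctsl and the B cell sum mostly Ighm. The part of such other cells in the results was not tested.

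In the response to 30 min of anti-CD3, the proteasome genes stayed close to their untreated level. In WT cells 0 of 49 members passed the test (limma, adjusted p under 0.05 over all genes), against 0.352% of all genes, and 0 of 49 had an unadjusted p under 0.05. The median change of the members was -0.06 log2, with a range from -0.33 for Psmd7, a structural subunit of the 19S lid, to 0.14 for Psmg4, and the median of all genes was 0.01. Psmd7 changed by -0.33 ± 0.17 log2 (SE, 3 arrays against 3, adjusted p = 0.99982) and Psmb2, a noncatalytic beta subunit, by -0.26 ± 0.19. The 95% intervals of 43 of the 49 WT changes lay within a change of 1.5-fold either way.

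The knockouts gave 0 called members as well. This was 0 of 49 in SapKO, where 0.363% of all genes were called, 0 of 49 in ElkKO against 0.203%, and 0 of 49 in ElkSapKO against 0.346%. By unadjusted p under 0.05 the counts were 1, 0 and 1. The members with the largest changes were Psmg3 and Psmg2 in SapKO, at -0.31 and -0.26 log2, and Psmc4 and Psmd7 in ElkKO, at -0.43 and -0.35. In ElkSapKO they were Psmg3 and Psmb11, at -0.44 and -0.42, of which Psmb11 is at background. The response differed from that of WT for 0 of 49 members in each knockout, with 0.0% of all genes called, and 0 members had an unadjusted p under 0.05. The largest differences of response were 0.21 log2 for Psmb2 in SapKO, 0.37 for Psmb2 in ElkKO and -0.52 for Psmb11 in ElkSapKO. The 8 alpha ring members had a median change of 0.13 log2 in ElkSapKO, which came from mouse 2, whose untreated array has the widest spread named above. Their median was 0.44 log2 in mouse 2, 0.02 in mouse 1 and 0.0059 in mouse 3, and 0 of 8 passed the test.

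**Figure D1:**
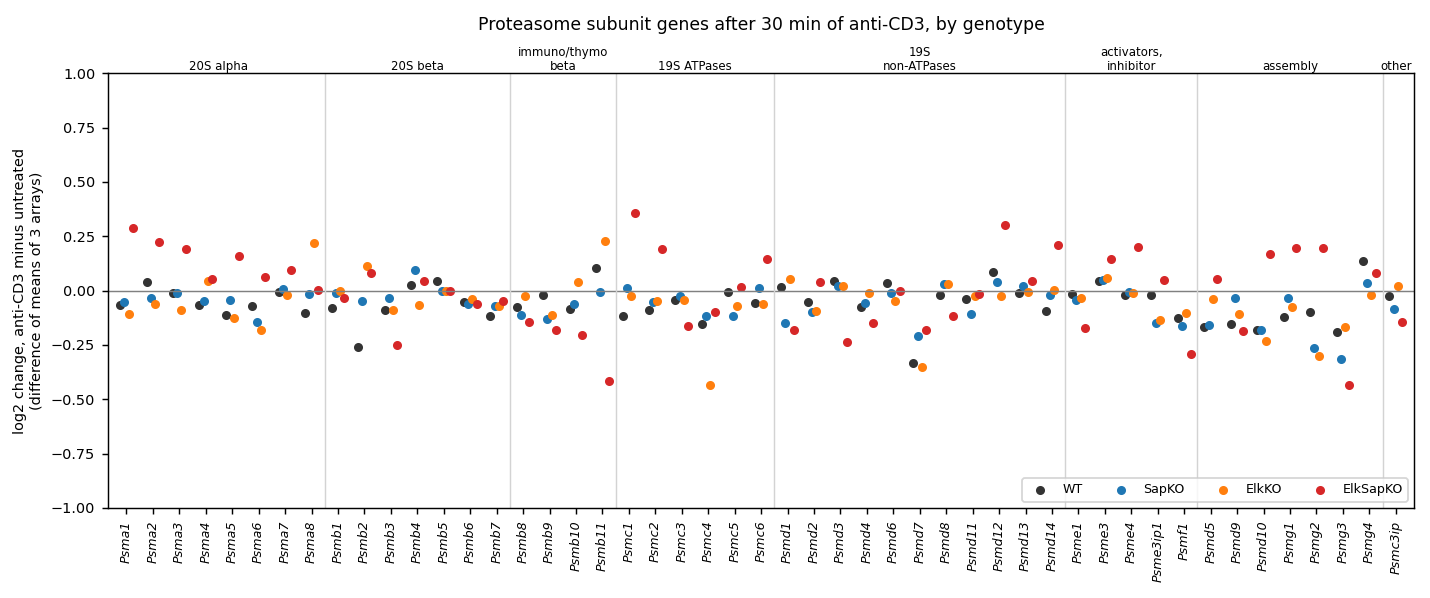
Log2 change of each member between anti-CD3 and untreated arrays (difference of means of 3 arrays) in the 4 genotypes, with members grouped by role. Points scatter around 0 between -0.44 and 0.36 log2, and none passed the test.

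Averaged over the 4 genotypes, a single member passed, Psmg3, a chaperone that helps to assemble the alpha ring. This was 1 of 49 members, or 2.04%, against 1.45% of all genes. In WT mice 1, 2 and 3, Psmg3 was at 8.43, 8.62 and 8.51 log2 untreated and at 8.24, 8.38 and 8.36 after anti-CD3. In SapKO mice 1, 2 and 3 it was at 8.48, 8.58 and 8.38 untreated and at 8.21, 8.19 and 8.10 after anti-CD3. In ElkKO it went from 8.52, 8.31 and 8.50 to 8.25, 8.15 and 8.44, and in ElkSapKO from 8.25, 8.47 and 8.67 to 7.80, 8.10 and 8.18. It was thus lower after anti-CD3 in each of the 12 mice, and the untreated and stimulated groups overlapped in ElkKO but not in the other genotypes. The averaged change was -0.28 ± 0.063 log2 (SE), 1.21-fold lower, with an adjusted p of 0.0219. Psmg3 was the only member to move the same way in all 12 mice, which 1.64% of all genes did. The call was lost when WT untreated mouse 2 (-0.26), SapKO untreated mouse 2 (-0.26), SapKO anti-CD3 mouse 3 (-0.27) or ElkKO anti-CD3 mouse 2 (-0.26) was left out, with an adjusted p of up to 0.054. It was also lost when the probe sets of a gene were averaged (-0.18), where its other probe set is below 6 log2.

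The other members changed little in this average. All 49 intervals lay within a change of 1.5-fold, the lowest bound being -0.45 and the highest 0.25 log2. Psmd7 was the next largest, at -0.27 ± 0.086 log2 with an adjusted p of 0.204. The immunoproteasome subunits were at -0.09 ± 0.063 log2 for Psmb8, -0.11 ± 0.065 for Psmb9 and -0.08 ± 0.071 for Psmb10. Psmb5 was at 0.01 ± 0.055. Psmf1, an inhibitor of the 20S core, was at -0.17 ± 0.082, and Psme1, a subunit of the interferon-inducible activator PA28, at -0.07 ± 0.070. Psme4, the nuclear activator PA200, was at 0.04 ± 0.059. Among the assembly chaperones besides Psmg3, Psmg1 was at -0.01 ± 0.075, Psmg2 at -0.12 ± 0.13 and Psmg4 at 0.06 ± 0.066. None of these passed the test, and a p above the threshold does not show that a gene did not move. On the same arrays Rag1 fell by 0.64 log2 (adjusted p = 3.7e-08) and Dnajb1, a heat shock co-chaperone, rose by 0.59 (adjusted p = 1.4e-06). Dnajb1 was the single call among 10 heat shock genes, against 1.45% of all genes.

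Loss of Sap left 0 called members. In untreated SapKO cells against WT this was 0 of 49, where 0.0824% of all genes were called, and after anti-CD3 0 of 49 against 0.0715%. By unadjusted p under 0.05 both counts were 0. The largest untreated differences were 0.26 ± 0.13 log2 for Psmb9 and -0.16 ± 0.11 for Psmc3, and all 49 intervals lay within 1.5-fold. After anti-CD3 they were -0.24 ± 0.15 for Psmd1 and -0.18 ± 0.17 for Psmc3ip. Over mouse means, the 6 mice without Sap (SapKO and ElkSapKO) were set against the 6 with it (WT and ElkKO). Here 0 of 49 members passed, against 0.154% of all genes, and 6 had an unadjusted p under 0.05. Psmg2 and Psmd9, both assembly chaperones, had the largest differences, at -0.26 ± 0.14 and -0.25 ± 0.089 log2, and all 49 intervals again lay within 1.5-fold. Without ElkSapKO mouse 2 the difference was -0.13 for Psmg2 and -0.27 for Psmd9.

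Without Elk, 3 alpha ring genes, 3 of the 19S non-ATPases and the assembly chaperone Psmg4 had higher signals, and Psme3 a lower one. The mean of the untreated and stimulated array of each mouse was compared between 6 mice without Elk (ElkKO and ElkSapKO) and 6 with it (WT and SapKO), with Sap as a second factor. In this comparison 8 of 49 members passed, 16.3%, against 9.99% of all genes. Higher were 7 of 49, against 2.39% of all genes, and lower was 1. Of the 1818 genes called over all genes, 435 were higher and the rest lower. Bright genes were called more often, and most members are bright. Of the 45 members with a mean of at least 8 log2, 7 passed (15.6%), against 17.8% of all genes this bright, so that the share of called members was near that of other bright genes. Of these members 6 were higher (13.3%), against 3.47% of the bright genes. Among the 810 bright genes called, 158 were higher and the rest lower. The mouse means of the 6 mice without Elk and the 6 with Elk did not overlap for 5 of 49 members (10.2%), against 5.91% of all genes, and for 4 of the 45 bright members (8.89%), against 11.7% of the bright genes. In bulk samples like these, fewer cells of a type and less RNA per cell cannot be told apart.

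Psme3, the single member of the activators that passed, encodes PA28gamma (REGgamma), a nuclear activator of the 20S core that supports degradation without ubiquitin. In WT mice 1, 2 and 3 its signal was 8.52, 8.69 and 8.21 log2 untreated and 8.82, 8.57 and 8.15 after anti-CD3. In SapKO it was 8.47, 8.33 and 8.39 untreated and 8.61, 8.33 and 8.40 after anti-CD3. In ElkKO it was 8.19, 7.87 and 7.60 untreated and 8.01, 8.20 and 7.62 after anti-CD3. The 6 ElkSapKO arrays were the lowest group, at 7.54, 7.39 and 7.49 untreated and 7.60, 7.65 and 7.60 after anti-CD3. ElkSapKO thus lay below every array with Elk, whereas the highest ElkKO array reached the level of WT mouse 3. The mouse means were 8.18 to 8.67 log2 with Elk and 7.52 to 8.10 without. The difference was -0.73 ± 0.11 log2 (SE, 6 mice against 6), 1.65-fold lower, with an adjusted p of 0.00218, and it passed in each of 12 fits that left out 1 mouse. A second probe set of Psme3 went the same way, by -1.43 log2.

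The alpha ring was positive throughout the Elk comparison, with a median of 0.21 log2 and 3 of 8 members called. The other 5 were at 0.09 (Psma1), 0.16 (Psma3), 0.08 (Psma4), 0.27 (Psma7) and 0.07 (Psma8, at background). Psma5 was at 10.1, 9.83 and 10.3 log2 in untreated WT mice 1, 2 and 3 and at 9.90, 9.81 and 10.2 after anti-CD3. In SapKO it was at 10.2, 10.3 and 9.93 untreated and 10.0, 10.1 and 10.1 after anti-CD3. In ElkKO it was at 10.3, 10.3 and 10.5 untreated and 10.1, 10.2 and 10.5 after anti-CD3, and in ElkSapKO at 10.7, 10.4 and 10.6 and at 10.8, 10.8 and 10.6. All 6 ElkSapKO arrays were above all 12 arrays with Elk, while ElkKO overlapped with them. The difference was 0.43 ± 0.087 log2 (1.35-fold, adjusted p = 0.00947), and its second probe set above 6 log2 gave 0.22. With the probe sets of a gene averaged, the call was lost for Psma5 (0.20, adjusted p = 0.0502) and for Psma6 (0.05, adjusted p = 0.613) and kept for Psma2. The averages of Psma5 and Psma6 each took in a probe set within the Xist range, at 4.055 and 4.131 log2.

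Psma6 had mouse means of 11.5 to 11.6 log2 with Elk and 11.7 to 11.9 without, which did not overlap. Over single arrays it ran from 11.39 to 11.59 log2 in the 12 arrays with Elk and from 11.56 to 12.001, with a median of 11.8, in the 12 without. The arrays that overlapped those with Elk were untreated ElkSapKO mouse 2 and stimulated ElkSapKO mouse 3. The difference was 0.30 ± 0.065 log2 (adjusted p = 0.0122), and 2 further probe sets of Psma6 gave 0.12 and 0.15. Psma2 had mouse means of 11.11 to 11.31 log2 with Elk and 11.32 to 11.54 without, which did not overlap, and a difference of 0.25 ± 0.068 (adjusted p = 0.0340). The Psma5 and Psma6 calls passed in all 12 fits without 1 mouse. The Psma2 call passed in 3, those without WT mouse 3, ElkSapKO mouse 2 or ElkSapKO mouse 3, and was lost in the other 9, with differences of 0.23 to 0.27 log2 and an adjusted p of up to 0.0986.

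In the 19S cap, 3 of 11 non-ATPases and 0 of 6 ATPases passed. The non-ATPases did not share a direction, with 6 positive, 5 negative and a median of 0.0009 log2, and Psmd3, Psmd7 and Psmd8 of the lid were at -0.18, -0.11 and -0.13 without passing. Psmd14, the lid enzyme that removes ubiquitin chains from captured proteins, was at 10.4, 10.4 and 10.5 log2 in untreated WT mice 1, 2 and 3 and at 10.2, 10.3 and 10.5 after anti-CD3. In SapKO it was at 10.2, 10.4 and 10.2 untreated and at 10.2, 10.3 and 10.3 after anti-CD3. In ElkKO it was at 10.7, 10.6 and 10.7 untreated and 10.7, 10.8 and 10.6 after anti-CD3, and in ElkSapKO at 10.7, 10.4 and 10.7 and at 10.8, 10.8 and 10.9. Of the 12 arrays without Elk, 11 were above all arrays with Elk, and the exception was the untreated array of ElkSapKO mouse 2. The difference was 0.36 ± 0.068 log2 (1.28-fold, adjusted p = 0.00707), and it passed in all 12 fits without 1 mouse.

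Psmd11, a lid scaffold subunit, had mouse means of 10.67 to 11.11 log2 with Elk and 11.08 to 11.25 without, which overlapped, and differed by 0.30 ± 0.085 (adjusted p = 0.0422). Its 3 further probe sets above 6 log2 gave -0.06 to 0.25, and with probe sets averaged the call was lost (0.17, adjusted p = 0.0815). That average also took in probe sets below 6 log2. Psmd1, the large scaffold of the base, differed by 0.33 ± 0.092 (adjusted p = 0.0394), with mouse means of 9.17 to 9.71 log2 and 9.49 to 9.86 that overlapped. Psmd4, a ubiquitin receptor, was at -0.07 ± 0.078 and did not pass. The Psmd11 call passed in 5 of the 12 fits, without WT mouse 3, SapKO mouse 2 or any 1 of the ElkSapKO mice, and the Psmd1 call in 4, without WT mouse 3, SapKO mouse 2 or ElkSapKO mouse 1 or 3. Otherwise the differences were 0.24 to 0.30 log2 for Psmd11 and 0.28 to 0.34 for Psmd1, with adjusted p of up to 0.113 and 0.103.

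Among the 7 assembly chaperones Psmg4, the partner of Psmg3 in early assembly, was the single call, at 0.27 ± 0.076 log2 (adjusted p = 0.0391). With probe sets averaged it was at 0.11 and the call was lost (adjusted p = 0.397), where its other probe set is at 3.04 log2. Its mouse means were 7.65 to 7.79 log2 with Elk and 7.89 to 8.31 without, which did not overlap. The untreated array of ElkSapKO mouse 2 was the highest, at 8.45, and without that mouse the difference was 0.21. The call passed in 3 of the 12 fits, each without 1 ElkSapKO mouse, and was lost without any other mouse, with differences of 0.26 to 0.29 log2 and an adjusted p of up to 0.0953. Psmg1 was at 0.09 ± 0.083, Psmg2 at -0.09 ± 0.14 and Psmg3 at -0.07 log2, and these did not pass. The count of called members was 4 without any 1 of WT mice 1 and 2, SapKO mice 1 and 3 and the 3 ElkKO mice, and 14 without ElkSapKO mouse 3. The share of all genes called in these fits is not given, so the counts do not set the members apart.

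**Figure D2:**
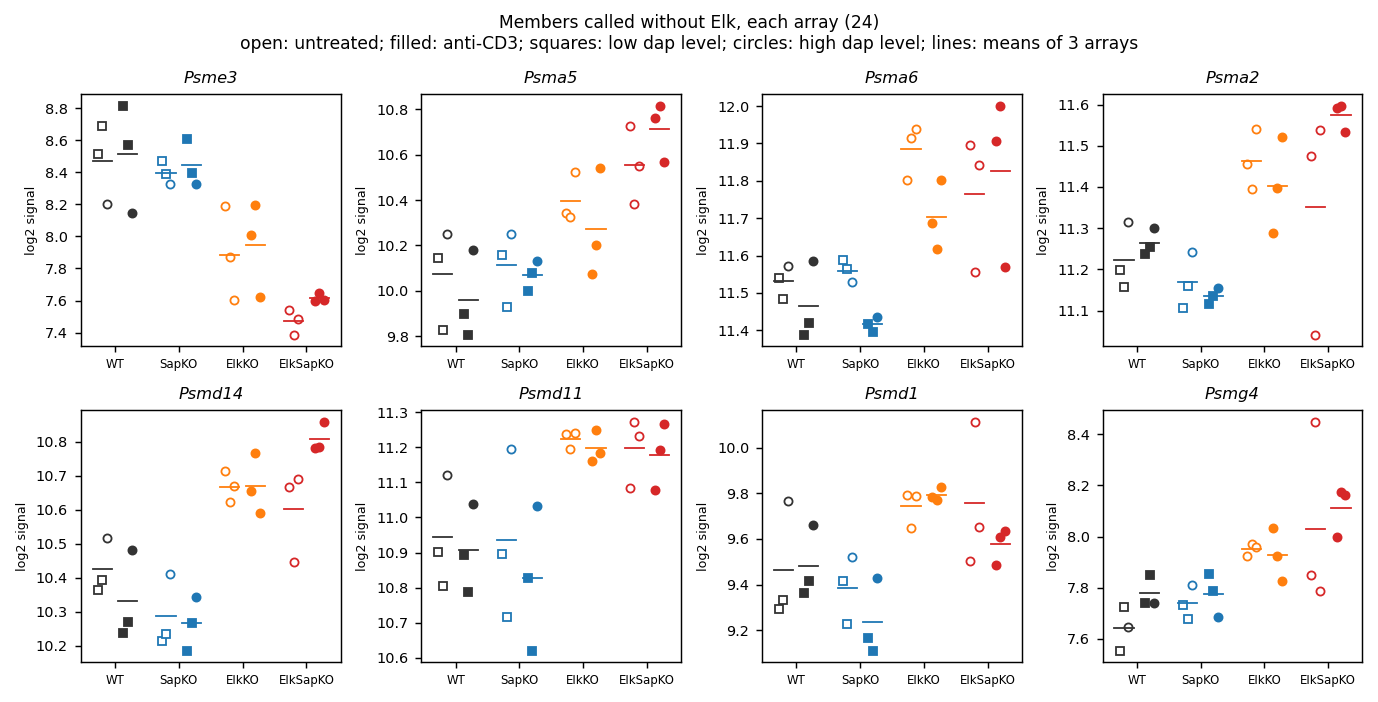
Log2 signal of the 8 members called in the Elk comparison in each of the 24 arrays, by genotype (open untreated, filled anti-CD3, squares low dap level, circles high dap level, lines means of 3 arrays). Psme3 is lowest in ElkSapKO, at 7.39 to 7.65 log2, and the other 7 members have higher means without Elk.

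The cutting subunits did not pass in the Elk comparison. Psmb5 was at -0.17 ± 0.071 log2 (adjusted p = 0.153), Psmb6 at 0.16 ± 0.069 (adjusted p = 0.147) and Psmb7 at -0.12 ± 0.092 (adjusted p = 0.453). The immunoproteasome subunits Psmb8, Psmb9 and Psmb10 were at -0.09 ± 0.072, -0.18 ± 0.082 and -0.18 ± 0.086 log2, with adjusted p of 0.480, 0.186 and 0.221. Psme1 was at -0.23 ± 0.089 (adjusted p = 0.122), Psme4 at 0.06 ± 0.067 and Psmf1 at -0.12 ± 0.10. Other probe sets above 6 log2 gave -0.27 and -0.11 for Psme4 and -0.39 and -0.38 for Psmf1, and these were not tested. The beta ring as a whole had 0 of 7 constitutive members called, with 4 positive and a median of 0.11 log2. Of all 49 intervals, 47 lay within 1.5-fold, the exceptions being Psma5 and Psme3.

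**Figure D3:**
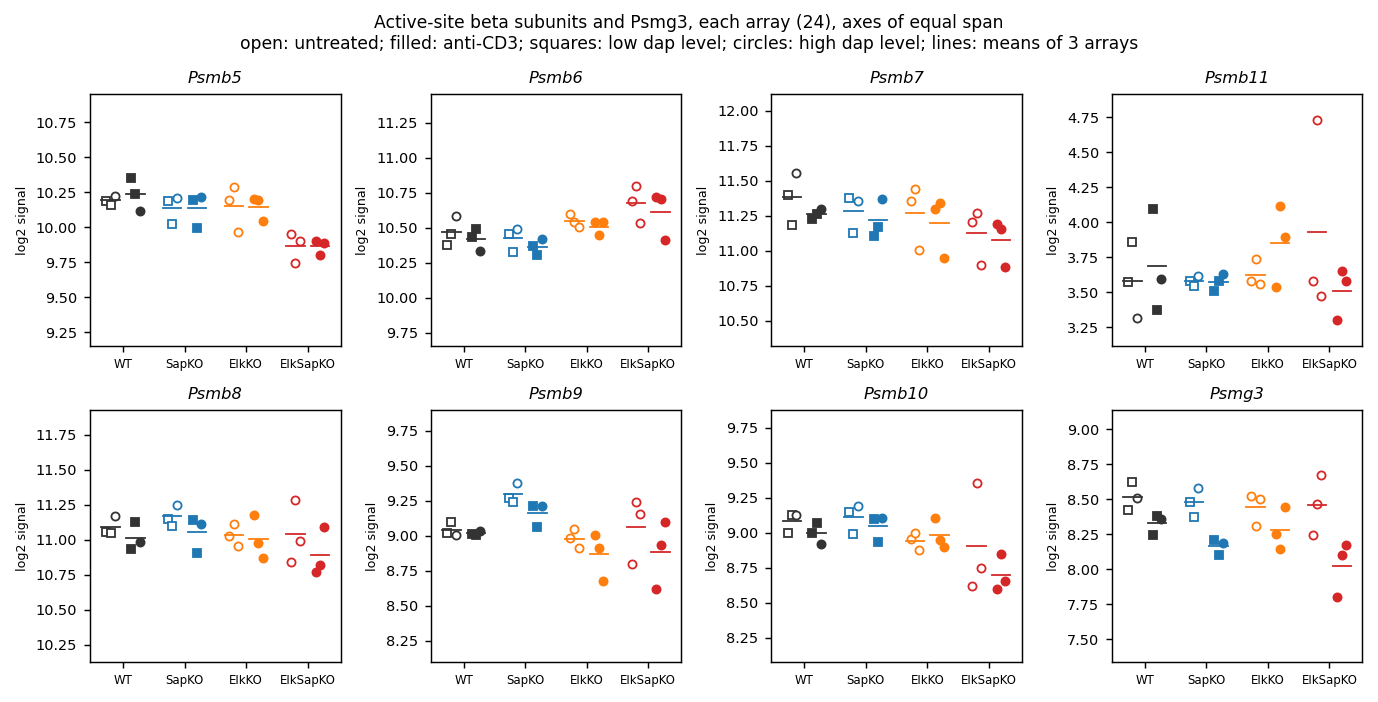
Log2 signal of the cutting beta subunits, Psmb11 and Psmg3 in each of the 24 arrays, on axes of equal span (open untreated, filled anti-CD3, squares low dap level, circles high dap level, lines means of 3 arrays). Psmb5 is lower in ElkSapKO, at group means of 9.87 log2 in both states against 10.2 in WT, and Psmb11 stays at background.

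The RNA quality measure and the dap level moved with the Elk comparison. The 12 arrays with Elk had Actb 3′ minus 5′ signals of at most 0.359 log2 and those without Elk of at least 0.381, so that Elk and this measure cannot be told apart. With the dap level as a block 0 of 49 members passed, and Psme3 was at -0.52 ± 0.13 log2 (adjusted p = 0.178), Psma5 at 0.28 ± 0.11, Psma6 at 0.26 ± 0.093 and Psmd14 at 0.25 ± 0.088. The share of all genes called with this block is not given, so whether its 0 is particular to the members is not known. All arrays without Elk had a high dap level, so the block sets them against only WT mouse 3 and SapKO mouse 2. Psmd11 was at 0.10 ± 0.097 and Psmd1 at 0.12 ± 0.11, against 0.30 and 0.33 without the block. With the Actb measure as a covariate 0 of 49 passed too, and Psme3 was at -0.39 ± 0.23, Psma5 at 0.26 ± 0.20, Psmd14 at 0.48 ± 0.16, Psmd1 at 0.04 ± 0.20 and Psmg4 at 0.03 ± 0.17 log2. Of the 8 called members, 5 had an unadjusted p under 0.05 with the dap block and 1, Psmd14, with the covariate. Over all genes 0 of 18193 passed with the covariate, and 1558 had an unadjusted p under 0.05.

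The 4 arrays with Elk and a high dap level lay between the others for most of these members. Psme3 had a mean of 8.56 log2 in the 8 low-dap arrays with Elk, 8.25 in the 4 high-dap arrays with Elk and 7.73 in the 12 without Elk. Psmd11 had 10.8, 11.1 and 11.2 log2, and Psmd1 9.29, 9.59 and 9.72. Psmd14 had 10.3, 10.4 and 10.7 log2. Psmg4 did not follow this order, at 7.74, 7.72 and 8.00.

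**Figure D4:**
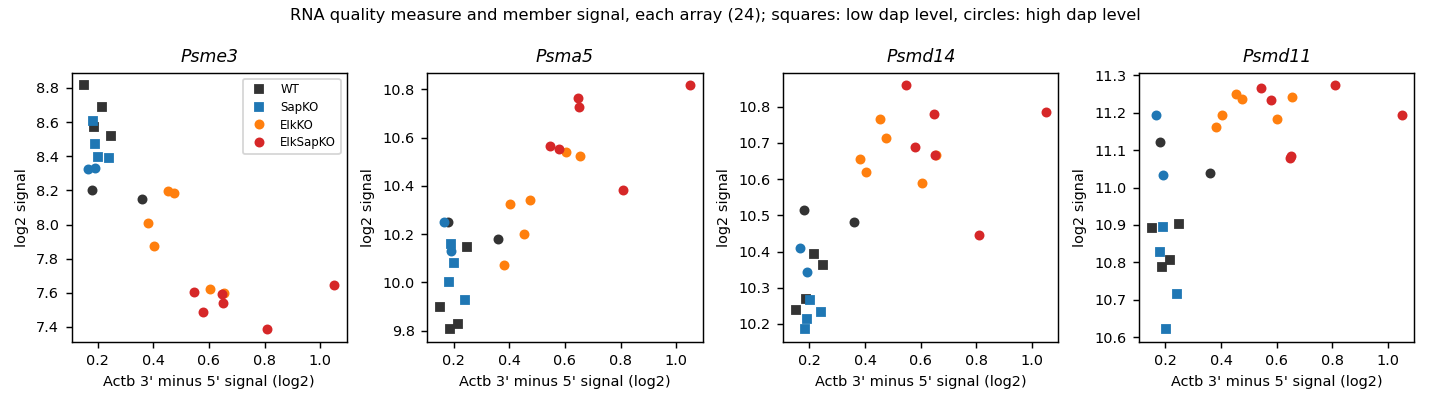
Log2 signal of Psme3, Psma5, Psmd14 and Psmd11 against the Actb 3′ minus 5′ signal (log2) in each of the 24 arrays, coloured by genotype (squares low dap level, circles high dap level). All arrays with Elk lie at or below 0.359 on the horizontal axis and all without Elk at or above 0.381.

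The Elk difference was then split by the state of Sap, which uses 3 mice against 3 and no mouse in common. ElkKO minus WT gave 0 of 49 called members, against 0.412% of all genes, and 6 members had an unadjusted p under 0.05. ElkSapKO minus SapKO gave 3, against 4.38%. These were Psme3 at -0.88 ± 0.15 log2 (adjusted p = 0.0119), Psma5 at 0.54 ± 0.12 (adjusted p = 0.0315) and Psmd14 at 0.43 ± 0.096 (adjusted p = 0.0293). In ElkKO minus WT the same genes were at -0.58 ± 0.15, 0.32 ± 0.12 and 0.29 ± 0.096 log2. The differences between the splits, tested as departure from additivity, passed for 0 of 49 members, against 0.022% of all genes, and 1 member had an unadjusted p under 0.05. Across the 49 members the 2 sets of differences had a Pearson r of 0.761 and a Spearman rho of 0.669, and 38 (77.6%) had the same sign. Across all genes r was 0.542, rho 0.436 and the same-sign share 63.7%. Genes are not independent replicates, and in both splits the arrays without Elk had the higher Actb measure.

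**Figure D5:**
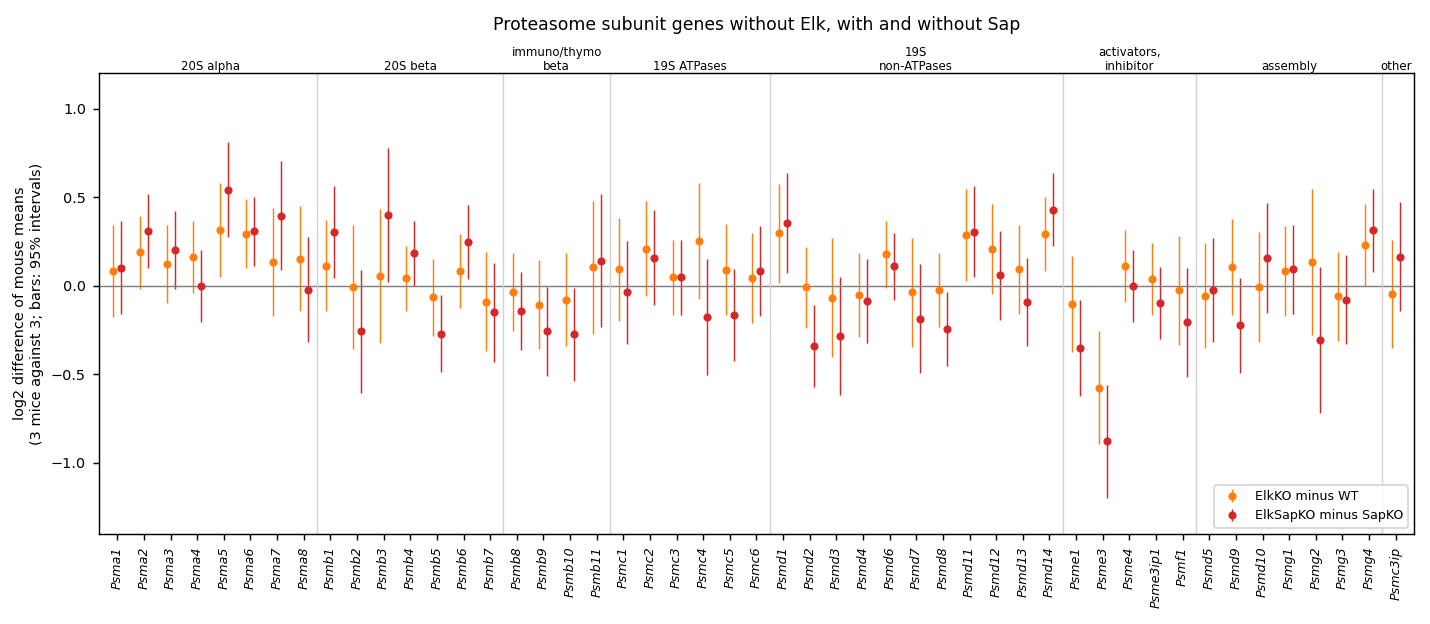
Log2 difference of mouse means (3 mice against 3) for each member in ElkKO minus WT and ElkSapKO minus SapKO, with 95% intervals and members grouped by role. Psme3 is the lowest in both, at -0.58 and -0.88 log2, and the alpha ring lies mostly above 0.

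Against WT within a state, calls were few. In ElkKO 0 of 49 members passed in untreated cells, against 0.0989% of all genes, and 0 of 49 after anti-CD3, against 0.22%, with 8 and 5 at an unadjusted p under 0.05. The largest untreated differences were those of Psme3, -0.58 log2, and Psmc4, a 19S ATPase, 0.39, and after anti-CD3 those of Psme3, -0.57, and Psmd14, 0.34. In untreated ElkSapKO 1 of 49 passed, Psme3 at -0.999 ± 0.17 log2 (2.00-fold lower, adjusted p = 0.00457), against 3.44% of all genes. Leaving out untreated ElkSapKO mouse 2 gave 3 called members, and leaving out untreated ElkSapKO mouse 3 gave 9. For these fits too the share of all genes called is not given.

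After anti-CD3 4 of 49 members (8.16%) differed in ElkSapKO from WT, against 6.83% of all genes. Psma5 was higher by 0.75 ± 0.15 log2 (1.69-fold, adjusted p = 0.00572) and Psmd14 by 0.48 ± 0.11 (adjusted p = 0.0121). Psme3 was lower by -0.90 ± 0.17 (1.86-fold, adjusted p = 0.00572) and Psmb5, the chymotrypsin-like subunit, by -0.37 ± 0.11 (adjusted p = 0.0453). Psmb5 was at 10.4, 10.2 and 10.1 log2 in stimulated WT mice 1, 2 and 3 and at 9.91, 9.80 and 9.89 in ElkSapKO, with no overlap. Its call passed in only 6 of 24 fits that left out 1 array, those without SapKO anti-CD3 mouse 3, the untreated or anti-CD3 array of ElkKO mouse 3, or 1 untreated ElkSapKO array. In the other 18 its difference was -0.43 to -0.31 log2, with an adjusted p of up to 0.16. The Psmd14 call was lost without the anti-CD3 array of WT mouse 2 (0.45) or of ElkSapKO mouse 1 (0.49), with an adjusted p of up to 0.0532. The count of called members was 2 without either of these arrays, 7 without the untreated array of ElkSapKO mouse 1, 11 without that of mouse 2 and 10 without the anti-CD3 array of mouse 3. With the dap level as a block and with the Actb covariate it was 0. The share of all genes called in the fits that left out 1 array is not given, so these counts do not set the members apart.

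Genes that work with the proteasome outside the rule were given beside these. Of 20 measured partners, 0 passed in the averaged response, against 1.45% of all genes. In the Elk comparison 2 fell and 0 rose, which is near the 9.99% of all genes called there. Those that fell were Zfand5, which promotes proteasome activity, at -0.32 ± 0.081 log2 (adjusted p = 0.0247), and Rad23b, a ubiquitin shuttle, at -0.30 ± 0.076 (adjusted p = 0.0254). Nfe2l1, the transcription factor that raises proteasome genes when proteasome activity is short, was at -0.32 ± 0.10 (adjusted p = 0.0619), and Nfe2l2 at -0.33 ± 0.14. Pomp, the core assembly factor, was at 0.09 ± 0.070, Akirin2, which guides proteasomes into the nucleus, at -0.22 ± 0.085, and the cap-bound deubiquitinases Usp14 and Uchl5 at 0.15 ± 0.16 and 0.11 ± 0.088. Of the ubiquitin and E1 list, only Uba6, an E1 enzyme, was measured by a probe set of its own, at -0.31 ± 0.13 log2 (adjusted p = 0.144).

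The MHC class I pathway, which carries proteasome products to the cell surface, had lower signals in the Elk comparison. Of 11 measured genes 6 fell and 0 rose, where 9.99% of all genes were called. Their median was -0.53 log2 against 0.02 for all genes, and in the responses to anti-CD3 0 passed. The calls were Pdia3 (-0.68 ± 0.11, adjusted p = 0.00293), the peptide transporter Tap2 (-0.56 ± 0.12), its partner Tapbp (-0.53 ± 0.12), H2-K1 and H2-D1 (-0.56 each) and Nlrc5, whose group means outside SapKO lay within the Xist range. ElkKO minus WT gave 0 of 11 calls, with a median of -0.15 log2, and ElkSapKO minus SapKO gave 7 of 11, with a median of -0.68. The departure from additivity passed for 0 of 11, and 5 had an unadjusted p under 0.05. In untreated SapKO, H2-K1 and H2-D1 were at 0.38 and 0.43 log2 above WT, which did not pass (limma, adjusted p = 0.99988 for both). In the Elk comparison Irf1, which drives immunoproteasome genes, fell by 0.44 log2 (adjusted p = 0.0246) and Irf9 by 0.49 (adjusted p = 0.00293). These were the 2 calls among 12 interferon genes, against 9.99% of all genes. Of the DP markers 3 of 9 fell as well, against the same 9.99%, Cd4 by 0.63, Cd3e by 0.59 and Cd8a by 0.40 log2. None of these genes passed with the Actb covariate, with which 0 of 18193 genes did.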

How the data were processed

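The deposited values are log2 signals of 45101 probe sets, made by the authors with RMA in the affy package, per the submitters' processing notes; RMA corrects background, quantile normalizes arrays and summarises the probes of a set, and no source used here gives their versions. Symbols came from the platform annotation: 34945 probe sets had 1 symbol, 932 several and 9160 none, and 64 controls were left out. The brightest single-symbol probe set stood for a gene, which gave 18193 genes, and probes of a gene can disagree. Comparisons used limma 3.58.1 in R 4.3.3: 8 group means over 24 arrays, or the means of 12 mice with Elk and Sap as factors. P values are two-sided with Benjamini-Hochberg adjustment over all genes, called under 0.05, and the code was tested on simulated data. Mouse numbers in the labels pair the untreated and stimulated array of an animal. The 12 pairs correlated at -0.035 to 0.85 around group means over 8361 genes, 11 above 0.1. In 9 of the 12 the untreated array correlated best with its own stimulated array among those of its genotype. The exceptions were ElkKO mice 1 and 2 and ElkSapKO mouse 2. With mouse as a block, the count called in the averaged response was 1, as without it. Named were called members, or the 2 largest changes where none was called, and a fixed set of subunits and partners. Members, lists and this rule were chosen with earlier results of these data known. Alternatives were leaving out each array or mouse, median centring, averaged probe sets, array weights, a filter at a mean of 6 log2, only the groups compared, arrays as units, and blocks or covariates for mouse, dap level and Actb. Figures used matplotlib 3.10.9.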

Additional observations from a re-analysis of the deposited data

Results flagged for a closer look

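Psme2, the partner of Psme1 in the activator PA28, was not a member, because its probe set also lists Psme2b. This probe set, which no comparison used, had a mean of 9.479 log2 over the 24 arrays, with a range of 9.21 to 9.64, all above the highest Xist signal of 5.07. Its signal was 9.53 log2 on average with Elk and 9.43 without, a difference of -0.11, and -0.07 log2 after anti-CD3 against untreated. These differences were not tested.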

How the results depend on the processing

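No called member reversed its direction under any alternative run. Members that were not called could do so. Without ElkSapKO mouse 2, 7 of the 8 alpha ring members were positive in the Elk comparison and 1 was negative. Counts of called members that moved by over 1.5 times are given with the main count first. The share of all genes called in the same alternative run is not given, here or above, apart from the Actb covariate. These counts therefore do not set the members apart from other genes. With array weights the count went from 0 to 1 for the ElkSapKO response, from 1 to 2 for the averaged response, from 0 to 3 for untreated ElkKO against WT, from 0 to 1 for stimulated ElkKO, from 1 to 20 for untreated ElkSapKO and from 4 to 19 for stimulated ElkSapKO. With averaged probe sets the averaged response and untreated ElkSapKO went from 1 to 0, and the Elk comparison lost the calls of Psma5 (0.20), Psma6 (0.05), Psmd11 (0.17) and Psmg4 (0.11) and made 4 others, 8 in all. The average behind each lost call took in probe sets below 6 log2. With the filter at a mean of 6 log2, untreated ElkSapKO went from 1 to 3 and stimulated ElkSapKO from 4 to 8, and with only the groups compared to 0 and 2. With the Actb covariate, untreated ElkSapKO, stimulated ElkSapKO and the Elk comparison gave 0 each. With the dap block, stimulated ElkSapKO and the Elk comparison gave 0. A run with high-dap arrays only was chosen after seeing the data and keeps only mouse 3 of WT and mouse 2 of SapKO. Its Elk differences for the 8 called members were the same as with the dap block. With arrays as units the Elk comparison went from 8 to 15. Leaving out 1 array gave 0 to 1 in the averaged response, 1 to 9 in untreated and 2 to 11 in stimulated ElkSapKO, and leaving out 1 mouse gave 4 to 14 in the Elk comparison. With the replicate block, by which the 2 arrays of a mouse are paired, 5 members passed in stimulated ElkSapKO against 4, and it changed no other count of members. The split of the Elk difference by Sap was also added after seeing the data. No depth is defined for arrays, and signals within the Xist range, those of Psma8 and Psmb11, give only a background level.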
